A study of Drosophila melanogaster with 3 samples.

Results

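The regions described here are the ZLD peaks of chromosome 4 of Drosophila melanogaster, the small dot chromosome. They are every peak that the 3 deposited lists place on this chromosome, 294 of 31277 peaks in all. For comparison between stages, peaks of any list whose interval midpoints lay within 150 bp of each other were joined, which gave 146 chromosome 4 sites of 16200 sites in the genome. The choice used the chromosome alone, not the height of a peak or its change.

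ZLD (Zelda) is a zinc-finger transcription factor that mothers load into the egg as RNA. It binds the TAGteam family of short sequences, opens chromatin at the sites it occupies and is required for the first wave of zygotic transcription. Chromosome 4 is unusual ground for such a factor: most of its length is packaged with heterochromatin proteins such as HP1 and is rich in repeats, yet its genes are transcribed, and a chromosome-specific protein, POF, coats them. Several of its genes encode well-known developmental regulators, among them ci, pan, ey and toy.

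Embryos of the wild-type strain Oregon R were sorted by hand under the microscope into pools at mitotic cycles 8 to 9 (cycle 8), late cycle 13 to early cycle 14 (cycle 13) and late cycle 14. ZLD-bound DNA was immunoprecipitated with an affinity-purified anti-ZLD antibody depleted of antibodies to the zinc fingers, from 3.7, 6.6 and 6 µg of chromatin, and sequenced. Sorting was by morphology, so each pool mixed adjacent cycles, and the DNA came from whole embryos. Each stage had 1 library, so no difference between stages has a replicate check, and every comparison is given as a size without a test. Intervals are exact at 95%, Poisson for coverage and Clopper-Pearson for shares. They cover counting error only, and copies made by PCR are not independent molecules.

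The files held 13496488 mapped reads at cycle 8, 18870755 at cycle 13 and 17481411 by late cycle 14, of which 79037, 128625 and 137542 lay on chromosome 4. Copies were most frequent at cycle 8: distinct combinations of position and strand made up 28.0% of the chromosome 4 reads there, 65.5% at cycle 13 and 52.2% by late cycle 14. The median coverage of the chromosome, with each read extended to 150 bp and each library scaled to 10000000 reads, was 2.22 at cycle 8, 3.18 at cycle 13 and 3.43 by late cycle 14. On chromosome arm 2L it was 4.45, 3.71 and 4.004. Read starts of the opposite strands around chromosome 4 midpoints were 133 to 141 bp apart in the 3 libraries, against 135 to 140 bp on 2L and X.

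Chromosome 4 gained peaks over development while the other arms did not. Its list held 77 peaks at cycle 8, 107 at cycle 13 and 110 by late cycle 14. Per Mb this was 58.3, 81.0 and 83.3 peaks, which took the chromosome from the lowest density of the 6 arms at cycle 8 to the third highest at late cycle 14. The late cycle 14 number was 142.9% of the cycle 8 number on chromosome 4, against 96.7% on X and 78.6% to 84.7% on 2L, 2R, 3L and 3R. Its share of the whole list went from 0.677% to 1.02% and 1.17%.

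The peaks themselves were of modest height. The median deposited height on chromosome 4, a coverage signal, was 98.6 at cycle 8, 104.7 at cycle 13 and 132.2 by late cycle 14, beside 113.7, 128.5 and 134.9 over the whole lists. The lowest chromosome 4 peak stood at 53.8, 52.5 and 57.1, and the highest at 1410, 1662 and 1492. Peaks of height 500 or more numbered 5, 6 and 7, which was 6.49%, 5.61% and 6.36% of the chromosome 4 peaks, against 10.7%, 15.7% and 18.02% of the whole lists. Peaks of height 500 or more were thus a smaller share here than in the genome at each stage. Peaks that reached the middle height of the whole cycle 8 list, 113.7, numbered 32 of 77, 50 of 107 and 65 of 110. The median interval was 280 bp wide.

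The reads moved with the peaks. Chromosome 4 held 0.586% of the mapped reads at cycle 8 (interval 0.582% to 0.590%), 0.682% at cycle 13 (0.678% to 0.685%) and 0.787% by late cycle 14 (0.783% to 0.791%). Its share at late cycle 14 was 1.34 times that at cycle 8, whereas the other arms stood between 0.95 and 1.02 times. Within 150 bp of a midpoint of the same stage lay 34.99% of the chromosome 4 reads at cycle 8, 40.5% at cycle 13 and 42.1% by late cycle 14, beside 45.3%, 51.2% and 52.8% on the other arms. Keeping 1 read per position and strand gave 27.8%, 27.2% and 29.2%, which no longer increased at cycle 13.

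Reads away from the peaks also moved on chromosome 4. Farther than 1000 bp from every midpoint of any list, there were 23293 reads per Mb at cycle 8, 24862 at cycle 13 and 28446 by late cycle 14, after scaling. The late cycle 14 level was 1.22 times that of cycle 8 on chromosome 4, and 0.74 to 0.79 times on the other arms. At cycle 8 chromosome 4 had the lowest such level of the 6 arms, and at late cycle 14 it matched 2L, which had 28444 reads per Mb. This change of the background level goes in the same direction as the changes of the sites given below, and its part in them was not tested.

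**Figure D1:**
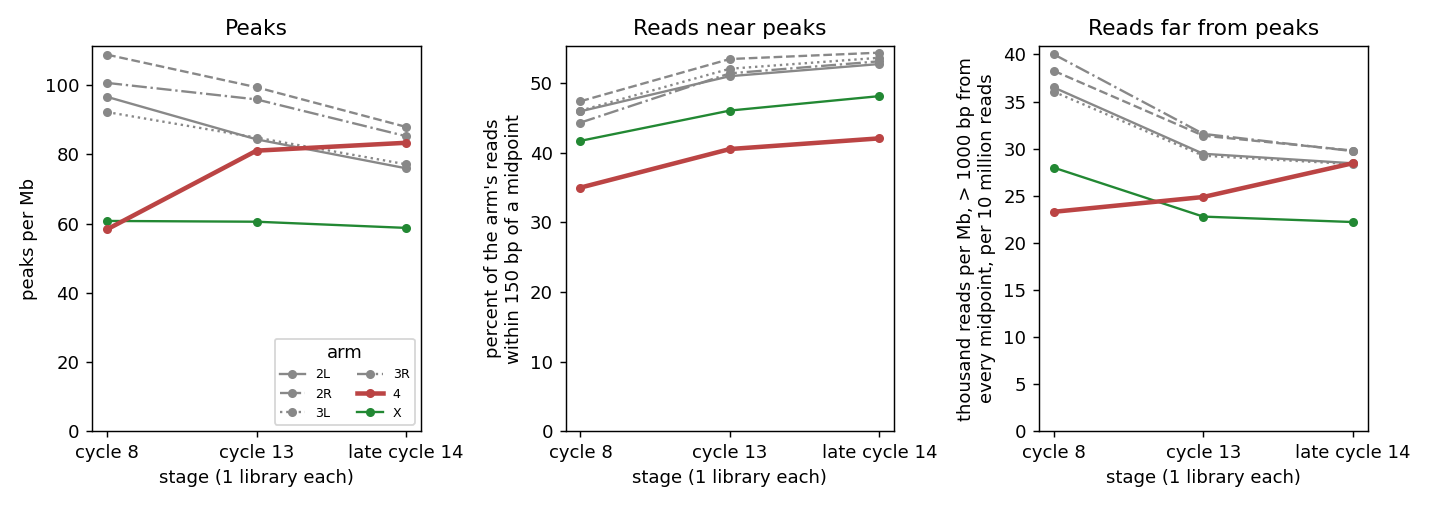
Peaks per Mb (left), the percent of an arm's reads within 150 bp of a peak midpoint (middle) and scaled reads per Mb farther than 1000 bp from every midpoint (right) on each chromosome arm at the 3 stages, 1 library each. Chromosome 4 (red) goes from 58.3 to 83.3 peaks per Mb and from 23293 to 28446 distant reads per Mb, while the other arms have fewer of both at late cycle 14 than at cycle 8.

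Of the 146 sites, 47 were in all 3 lists, which is 32.2% (interval 24.7% to 40.4%) and close to the 32.1% of the other arms. The remainder was distributed differently. Sites of the cycle 13 and late cycle 14 lists numbered 42 (28.8%, against 17.3% on the other arms), and sites of the late cycle 14 list alone numbered 20 (13.7%, against 9.06%). Sites of the cycle 8 list alone numbered 18 (12.3%, against 25.8%), and sites of the cycle 8 and cycle 13 lists 11 (7.53%, against 11.8%). The cycle 13 list alone held 7 sites, and 1 site was in the cycle 8 and late cycle 14 lists. By stage, 52.7% of all chromosome 4 sites were in the cycle 8 list, 73.3% in that of cycle 13 and 75.3% in that of late cycle 14, while on the other arms the shares went the opposite way, from 70.0% to 64.8% and 58.7%.

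A site missing from a list was seldom without reads. The 69 sites not in the cycle 8 list had a median coverage of 26.7 there, between 3.70 (5 reads) and 241, where the lowest listed site had 51.9. The 36 sites not in the late cycle 14 list had a median of 42.6 there, between 8.58 (15 reads) and 571. The highest of these values belong to a peak between CG2052 and lgs that was placed 58 bp apart in different lists: its 2 sites, centred at 421926 and 421984, share reads, and the first counts as a cycle 8 site by its list alone. When presence was read from coverage, as at least 2 times the chromosome median of the library, 99.3% of sites were present at all 3 stages. Those medians were only 2.22, 3.18 and 3.43, so the threshold lay far under the coverage of any listed site. Centres were also placed where pooled coverage was highest. The share therefore cannot show that ZLD occupied these sites at every stage, and it was not computed for the other arms.

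Coverage at the sites was higher late on chromosome 4. Its median over the 146 sites was 68.9 reads per 10000000 at cycle 8, 88.8 at cycle 13 and 101.3 by late cycle 14, whereas over all sites of the genome it was 88.2, 85.3 and 75.5. Sites with coverage of 200 or more numbered 16, 32 and 37 of the 146 on chromosome 4. Over the genome they numbered 3492, 3916 and 3762 of 16200. The stage of highest coverage was late cycle 14 at 88 chromosome 4 sites (60.3%, against 36.7% of all sites). It was cycle 8 at 33 (22.6%, against 45.1%) and cycle 13 at 25. The cycle 13 value lay between the other two at 115 sites, 78.8%, beside 77.9% over all sites.

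Between cycle 8 and late cycle 14, 75 chromosome 4 sites were higher by 2-fold or more, which is 51.4% (interval 43.0% to 59.7%), where 34.3% of all sites were. A further 21 sites, 14.4% (9.13% to 21.1%), were lower by at least 2-fold, beside 39.7% over the genome. The median log2 ratio was 1.04 on chromosome 4, −0.20 over all sites and 0.11 on X. A ratio above 0 was found at 102 of the 146 sites, 69.9%, and at 47.5% of all sites. With each arm scaled by its own reads far from peaks, an alternative chosen after seeing the data, the chromosome 4 numbers became 64 higher and 29 lower and its median 0.75. On that scale 43.8% of chromosome 4 sites and 43.8% of X sites were higher, 19.9% and 32.4% were lower, and the median of X was 0.45 and that of the other arms 0.09 to 0.32.

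**Figure D2:**
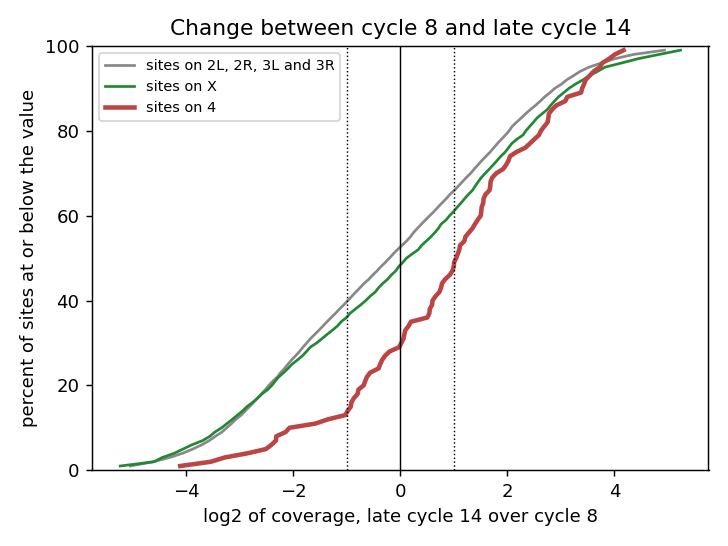
Percent of sites (vertical axis) at or below each log2 ratio of coverage, late cycle 14 over cycle 8 (horizontal axis), for the 146 chromosome 4 sites, the 2123 X sites and the sites of 2L, 2R, 3L and 3R. Dotted lines mark 2-fold, and the chromosome 4 curve lies to the right over most of the range, with a median of 1.04.

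The comparison was also made for each step. Between cycle 8 and cycle 13, 58 sites (39.7%) were higher by 2-fold or more, with 32.1% of all sites, and 16 (10.96%) were lower, with 26.4% of all sites. The median log2 ratio was 0.75 on chromosome 4 and 0.19 over all sites. Between cycle 13 and late cycle 14, 11 sites (7.53%) were higher and 11 lower, where 4.07% of all sites were higher and 25.8% lower. The median log2 ratio of this later step was 0.21 on chromosome 4 and −0.29 over all sites. The balance of the later step depended on the scaling. The median of ratios gave 42 higher (28.8%) and 6 lower (4.11%). Of all sites it gave 14.7% higher and 15.7% lower, with an all-site median of 0.11. With 1 read per position and strand 4 (2.74%) were higher and 8 (5.48%) lower, where 1.66% and 19.3% of all sites were. The reads of chromosome 4 far from peaks gave 3 and 17, and all-site shares of this step were not computed on that scale. Without the 4 sites in and near bt, 7 in place of 11 sites were lower.

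The median log2 ratio was above that of the other arms among weak and strong sites. At sites whose highest coverage of the 3 stages was under 100, the median log2 ratio from cycle 8 to late cycle 14 was 0.77 over 52 chromosome 4 sites and −0.74 on the other arms. At 100 to 200 it was 1.01 over 50 sites and −0.54, and at 200 to 500 it was 1.59 over 32 sites and 0.22. At 500 or more it was 1.64 over 12 sites and 0.85. The shares lower by 2-fold or more in the classes under 500 were 9.62%, 20% and 9.38%, against 46.2%, 43.7% and 35.3%. At 500 or more, 3 of the 12 sites (25%) were lower, against 19.2%, so this share was not smaller there. The 12 include both sites of the peak at 421926 and 421984, which share reads. Within the sites of all 3 lists, where a peak was called at each stage, the median log2 ratio was 0.60 over 47 chromosome 4 sites. It was 0.34 on the other arms. Of the 47, 14 were higher by 2-fold and 4 lower. Such counts were not made for the other arms, so these cannot show a difference from them.

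**Figure D3:**
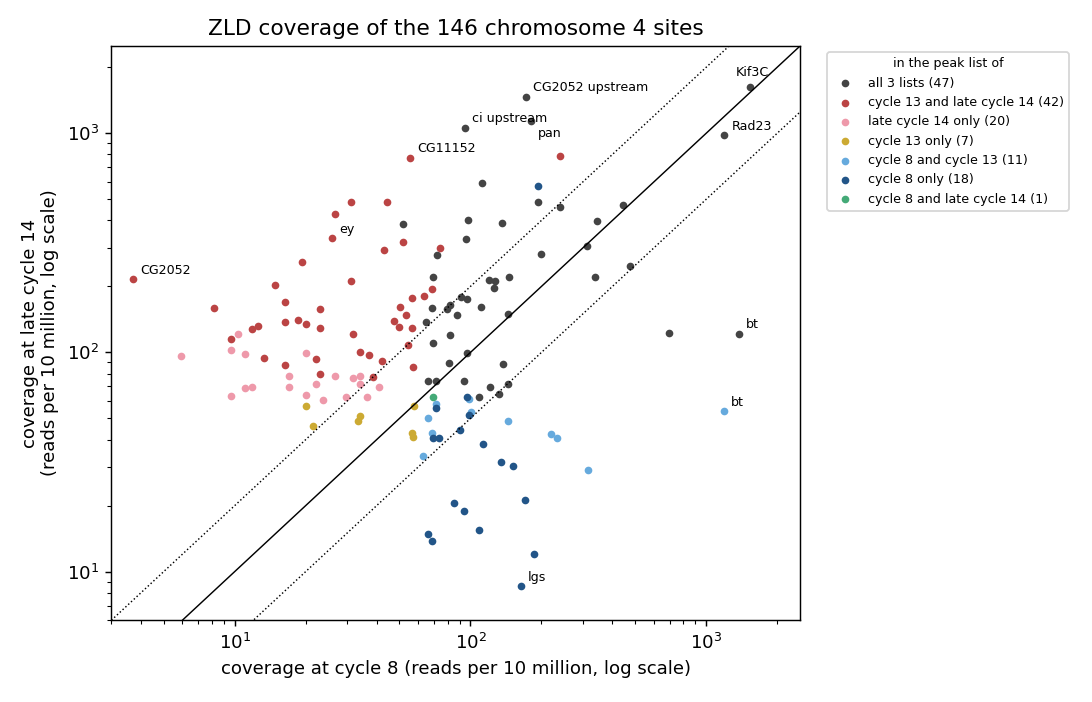
Coverage of the 146 chromosome 4 sites at cycle 8 (horizontal) and late cycle 14 (vertical), in reads per 10000000 on log scales, coloured by the lists that hold the site. The solid line marks equal coverage and the dotted lines 2-fold; 75 points lie on or above the upper dotted line and 21 on or below the lower one.

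The strongest chromosome 4 site of every list was in an intron of Kif3C, a kinesin motor gene. This peak (chr4:1181101-1181460 on dm3, centre 1181282) had a coverage of 1529 at cycle 8 (2064 reads, interval 1464 to 1597), 1768 at cycle 13 (1709 to 1829) and 1623 by late cycle 14 (1564 to 1684). The log2 ratio between cycle 8 and late cycle 14 was 0.09. With 1 read per position and strand, a count that cannot exceed 300 at a site and stood at 243, 298 and 293 here, it was −0.91. A strong peak in the coding sequence of Rad23 (chr4:329431-329800), which encodes a nucleotide excision repair and ubiquitin-binding protein, had 1194 at cycle 8, 986 at cycle 13 and 980 by late cycle 14. It was among the 5 highest peaks of each list. Next to it, Syt7, a synaptotagmin gene, had no stronger site of its own.

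Several genes that regulate transcription had late sites. Upstream of ci, the zinc-finger effector of Hedgehog signalling, a peak 2220 bp from the start (chr4:79731-80050) had a coverage of 94.8 at cycle 8 (128 reads, interval 79.1 to 113), 650 at cycle 13 (614 to 688) and 1059 by late cycle 14 (1011 to 1108). The late value was 11.2 times the early one. A peak labelled as promoter of pan, the TCF factor of Wingless signalling, at chr4:91011-91350 had 180 at cycle 8 (158 to 204), 881 at cycle 13 and 1137 by late cycle 14 (1087 to 1188), 6.31 times as much. The same peak is the strongest within 5000 bp of RpS3A, a ribosomal protein gene, so these genes cannot be told apart by it. Both peaks were in all 3 lists, with deposited heights of 90.6 and 200.8 at cycle 8. With 1 read per position and strand the log2 ratio from cycle 8 to late cycle 14 was 1.61 in place of 3.48 at the ci peak and 0.88 in place of 2.66 at the pan peak, which is under 2-fold. At late cycle 14 these peaks had 290 and 287 such reads, near the limit of 300.

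The largest cluster of sites surrounded CG2052, named dati in RefSeq, which encodes a zinc-finger protein. Its 14 sites lay between 402757 and 427031, with no gap over 5000 bp, and 4 of them were in the cycle 8 list, 11 in that of cycle 13 and 12 in that of late cycle 14. The summed coverage of their centres was 1103, 3133 and 4533, in which the pair of sites that share reads counts double. From cycle 8 to late cycle 14, 12 were higher by 2-fold or more, 1 was lower, at 424066, and 1, at 404154, had 145, 141 and 150. The 12 include both sites of the peak placed apart in different lists, at 421926 and 421984, whose log2 ratios were 0.75 and 0.76 with 1 read per position and strand. By that count 10 of the 14 sites were higher.

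The highest of them (chr4:426871-427210) stood 13014 bp upstream of the CG2052 start, in a region labelled intergenic. Its coverage was 172 at cycle 8 (232 reads, interval 151 to 196), 816 at cycle 13 (776 to 858) and 1466 by late cycle 14 (1410 to 1524), and it was the second highest chromosome 4 peak of the late cycle 14 list. Its log2 ratio was 3.09, and 1.21 with 1 read per position and strand. The peak at 421984 had 241, 645 and 791. At the gene's start itself, the site at 414255 had only 11.1 at cycle 8 (15 reads), 30.7 at cycle 13 and 68.6 by late cycle 14. A site with very few cycle 8 reads lay on the gene side of the start, 7955 bp from it, at chr4:405921-406210: coverage was 3.70 at cycle 8 (5 reads, interval 1.20 to 8.65), 137 at cycle 13 and 215 by late cycle 14 (194 to 238). Its log2 ratio was 5.86, with an interval from 4.62 to 7.49, the largest in size on the chromosome. It was 4.03 when reads over 300 bp were counted, where the site in bt at 778656 was larger in size at −4.44. The strongest site within 5000 bp of the start, at 417453, had 23.0, 100 and 157.

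**Figure D4:**
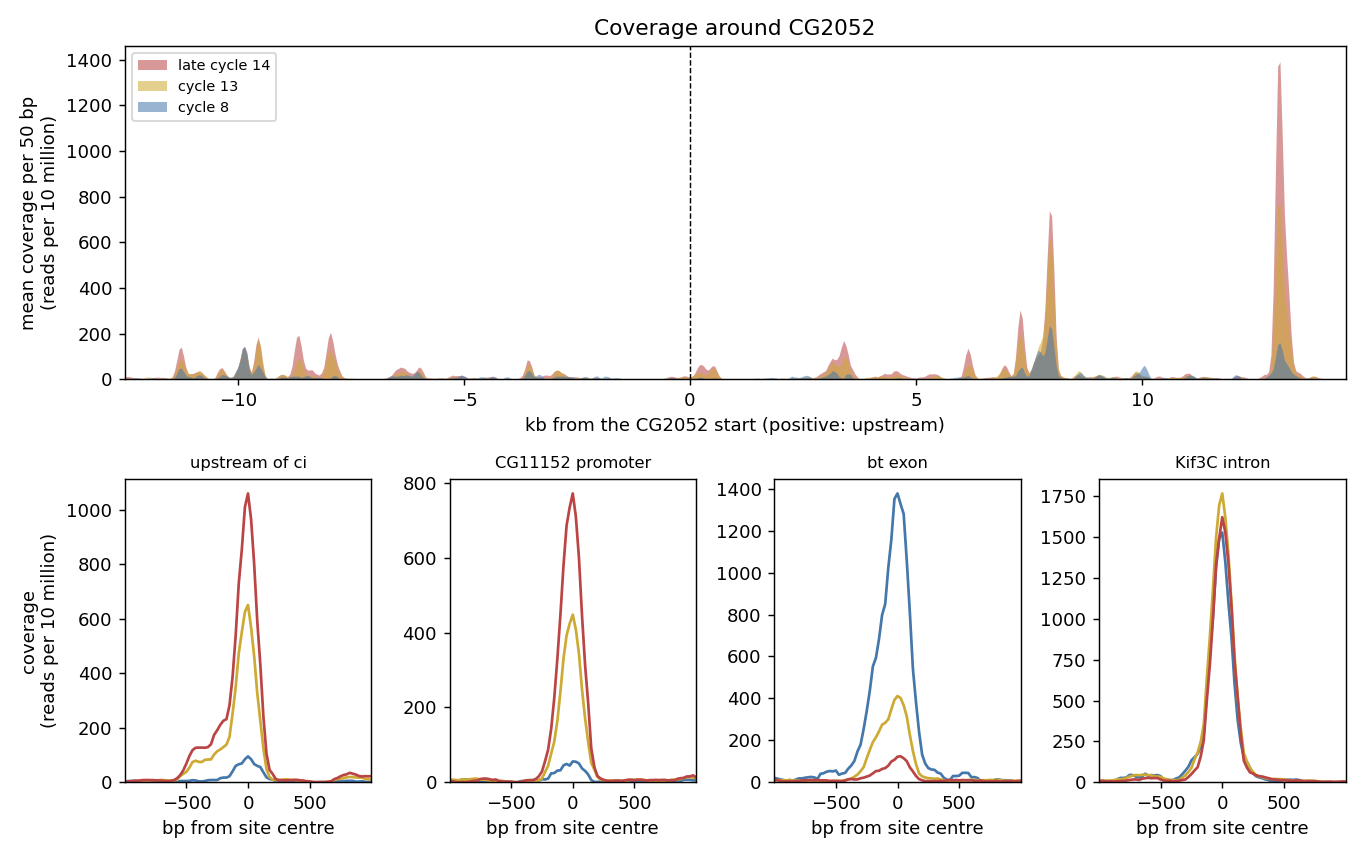
Top: mean coverage in steps of 50 bp around the CG2052 start, with the distance in kb, positive upstream, at cycle 8 (blue), cycle 13 (yellow) and late cycle 14 (red). Bottom: coverage within 1000 bp of the centre of 4 sites, which stands at 94.8, 650 and 1059 upstream of ci, at 55.6, 448 and 772 at the CG11152 promoter, at 1377, 411 and 122 in the bt exon and at 1529, 1768 and 1623 in the Kif3C intron.

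Upstream of a forkhead gene lay 4 sites that were in the late cycle 14 list and not in that of cycle 8. CG11152, named fd102C in RefSeq, had a peak labelled as promoter at chr4:865151-865460, 165 bp from its start. Coverage there was 55.6 at cycle 8 (75 reads, interval 43.7 to 69.7), 448 at cycle 13 and 772 by late cycle 14 (731 to 814). A neighbour 1720 bp from the start, at 866853, had 31.1, 253 and 485. All 4 sites between 865298 and 871902 were higher by 2-fold or more, with a sum of 133, 831 and 1456. A site inside the gene, at 857954, is not among these 4.

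Between lgs and onecut lay another cluster, of 10 sites from 518859 to 530609. In it 8 sites were higher by 2-fold or more at late cycle 14, and the strongest, at 522144, had 26.7 at cycle 8 (36 reads), 232 at cycle 13 and 429 by late cycle 14. Its neighbour at 522907 had 8.15 (11 reads), 122 and 160. The site at 520374 went the other way, from 132 to 111 and 64.6. The summed coverage of the cluster was 347, 944 and 1365. No gene placed here lay inside it.

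The 2 Pax6 genes of the chromosome, ey and toy, which direct eye development, differed in pattern. Inside ey, the strongest site, at 725246, was not in the cycle 8 list and had a coverage of 25.9 (35 reads, interval 18.1 to 36.1), 208 and 332 (306 to 361), 12.8 times as much late as early. The other 2 sites of ey were lower by 2-fold or more: the one at 727896 had 68.9, 30.7 and 13.7, and the one at 732630 had 170, 38.7 and 21.2. Around toy, a cluster of 11 sites lay between 1001879 and 1016107, 5 of them higher by 2-fold or more and none lower. The next 3 sites, from 1022139 to 1026682 and inside toy, differed by less than 2-fold. Inside or within 5000 bp of toy lay a partly different set of 11 sites. Of these 3 were higher and none lower, with a median log2 ratio of 0.05. The strongest site of the cluster at cycle 8, 2013 bp from the toy start (chr4:1008201-1008500), had 475 at cycle 8 (439 to 513), 302 at cycle 13 and 247 by late cycle 14 (224 to 272), or −0.94 as a log2 ratio. A site 6252 bp from the start, at 1004102, had 193, 475 and 485, a log2 ratio of 1.33 that was 0.39 with 1 read per position and strand. The promoter site, 94 bp from the start at 1010260, had 20.01 (27 reads), 120 and 135.

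Sites in Sox102F, which encodes a Sox family HMG-box factor, also differed in pattern. A trio of sites between 845468 and 846682, of which the stronger 2 are labelled intronic, differed by less than 2-fold. The one at 845468 had 442, 412 and 472, and its neighbour at 845819 had 344, 475 and 396. The intronic site at 829049, more than 5000 bp from the trio, was absent from the cycle 8 list. It had 44.5 (60 reads, interval 33.9 to 57.2), 250 and 486 (453 to 519). Of the other regulators, MED26, a Mediator subunit gene, had 71.9, 240 and 278 at 795834. Hcf, a chromatin cofactor gene, had 9.63 (13 reads), 44.5 and 102 at 395880. The single site near onecut, a homeodomain gene, had 65.9, 69.4 and 74.4.

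The strongest sites of the signalling and adhesion genes were late. The site near mav, which encodes a TGF-beta family ligand, had 51.9 at cycle 8 (70 reads, interval 40.4 to 65.5), 246 at cycle 13 and 386 by late cycle 14 (357 to 416) at 646783. A peak labelled as promoter of RhoGAP102A and lying 477 bp from the start of dpr7, an immunoglobulin-domain cell surface gene, had 112, 360 and 594 (chr4:280531-280840). It was in all 3 lists, and its late value was 5.31 times the early one.

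The strongest of the sites that were lower by 2-fold or more late were in bt, which encodes projectin, a giant protein of muscle. A peak in its coding sequence (chr4:776061-776580) was the second highest of the chromosome at cycle 8, with a coverage of 1377 (1859 reads, interval 1315 to 1441). It had 411 at cycle 13 and 122 by late cycle 14 (106 to 139), so the early value was 11.3 times the late one. A second coding peak (chr4:778511-778840) had 1190, 230 and 53.8 and was no longer in the late cycle 14 list, a ratio of 22.1. The intronic peak between these 2, at 777836, had 697, 298 and 122, and a weaker site at 782665 had 219, 107 and 42.3. The summed coverage of the 4 sites was 3483, 1047 and 340, which at cycle 8 was the largest sum of any cluster of the chromosome.

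Large differences towards cycle 8 were also found elsewhere. In gw, which encodes a component of microRNA silencing, the site at 678232 had 185 at cycle 8, 34.4 at cycle 13 and 12.01 by late cycle 14 (21 reads, interval 7.44 to 18.4). Near lgs, a Wingless co-activator gene, the site at 458988 had 164, 51.4 and 8.58 (15 reads, interval 4.80 to 14.2). The site at 139364, between pan and CG2219, had 316, 89.03 and 29.2. These values were lower at each later stage, and the last value of the first 2 sites compares with a chromosome median of 3.43. At ATPsyn-beta, a gene of the mitochondrial ATP synthase, the strongest site, at 1054934, had 137, 154 and 88.7.

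Taken by gene list, 23 of 35 genes could be placed on dm3 and 20 had a site inside or within 5000 bp. For 13 of the placed genes the span was known only in part, in some cases from 1 edge, so that sites could be missed there. From cycle 8 to late cycle 14 their strongest site was 2-fold higher or above for 11 genes, lower for 3 and in between for 6. Over the 146 chromosome 4 sites 51.4% were higher and 14.4% lower, and over all sites 34.3% and 39.7%. Among regulators of transcription, 7 of 10 were higher (ci, pan, ey, Sox102F, CG2052, Hcf and MED26), lgs was lower, and toy and onecut were in between. All 3 signalling, adhesion and guidance genes with a site were higher (mav, dpr7 and RhoGAP102A), of which dpr7 and RhoGAP102A share the site. Of the synapse and housekeeping genes, Kif3C, Syt7, Rad23 and ATPsyn-beta were in between, Syt7 and Rad23 by the same site, RpS3A was higher through the pan site and gw was lower. The calls of pan and RpS3A were lost with 1 read per position and strand. The genes placed and their lists were chosen with earlier results of these data known.

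Along the chromosome, the differences were not evenly spread. The 146 sites fell into 70 groups with gaps of more than 5000 bp between them, 41 of them single sites and 15 of 3 or more. Positions 400001 to 600000 held 38 sites, 29 of them higher by 2-fold or more and 5 lower, and their peak numbers were 11, 26 and 31 at the 3 stages. Positions 600001 to 800000, which include gw, ey and bt, held 23 sites, 8 higher and 8 lower, with 19, 18 and 16 peaks. Fewer sites had a close neighbour than elsewhere: 44.5% had one within 2000 bp, against 51.9% on X and 57.6% to 61.6% on the other 4 arms. The median gap between adjacent sites, 4658 bp, was close to the 4567 bp of X. It was 2959.5 to 3480.5 bp on the other 4 arms.

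Neighbouring sites mostly changed in the same direction, as they did on the other arms. Adjacent sites at a distance of 300 to 2000 bp made 41 pairs, of which 32 had log2 ratios of the same sign from cycle 8 to late cycle 14, 78.0% beside 73.5% of 5748 pairs on the other arms. Both members were higher by 2-fold or more in 16 pairs (39.0%, against 29.2%), and both were lower in 2 pairs (4.88%, against 19.4%), both of them in bt. In 3 pairs the members differed by 2-fold or more in opposite directions, 7.32% beside 7.67%. These shares also depend on how many single sites had a ratio above 0, which was 69.9% here and 47.9% on the other arms. No allowance was made for this, so the shares cannot show that neighbours were more alike here.

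**Figure D5:**
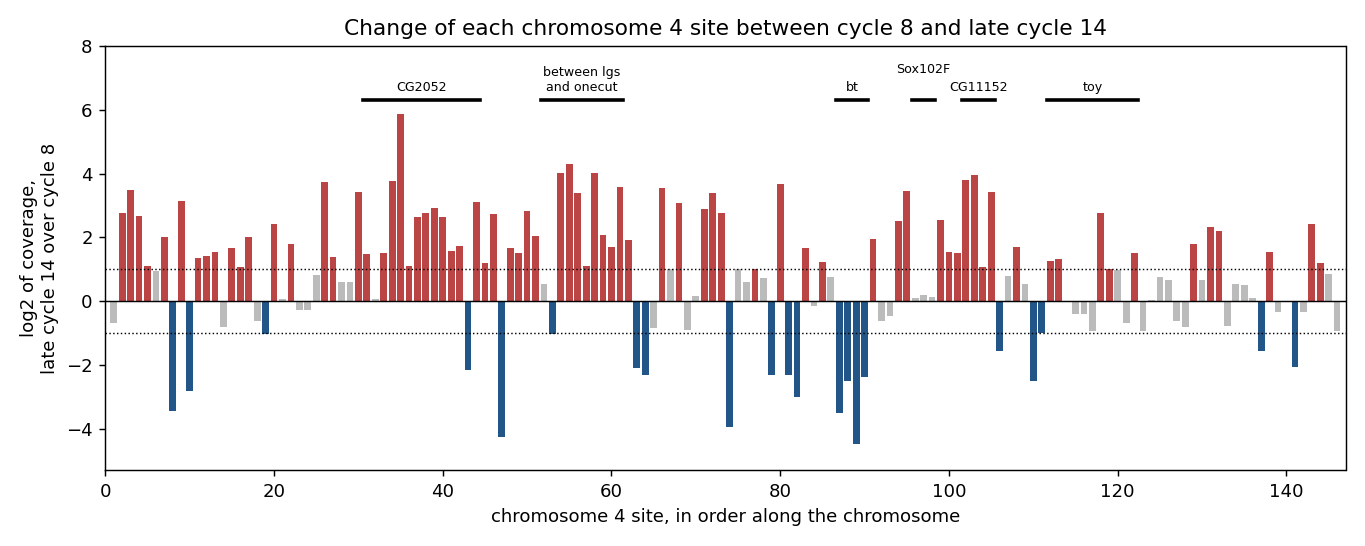
Log2 ratio of coverage, late cycle 14 over cycle 8, for each of the 146 chromosome 4 sites in order along the chromosome (horizontal axis, rank). Red bars are higher by 2-fold or more (75 sites), blue bars lower (21 sites) and grey bars in between (50 sites); black lines mark the clusters described at CG2052 (14 sites), between lgs and onecut (10), bt (4), Sox102F (3), CG11152 (4) and toy (11).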

How the data were processed

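The authors mapped reads to dm3 with Bowtie 0.12.5, kept, as they state, reads with a unique place, extended them to 150 bp and called peaks in each library with Grizzly Peak. The stated mapping option allows up to 2 places per read, and whether such reads remain on this repeat-rich chromosome was not checked. The deposited lists give an interval and a height, a coverage signal scaled to 10000000 reads. The deposited reads are listed with position and strand, 1 to a line.

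Sites were joined over the whole genome, and a site's centre was the position of highest pooled coverage within 100 bp of its midpoints. Coverage counted all copies, and read numbers under 3 were set to 3 in log2 ratios. Python 3.11.15, numpy 2.4.6, scipy 1.17.1 and pandas 2.3.3 were used, and the functions were tested on simulated data. Depth on chromosome 4 was lowest at cycle 8, so intervals are widest there. Peaks per Mb use the length to an arm's last mapped read.

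Named sites were those within 150 bp of a labelled peak in the parts of the study's peak tables used here, the 5 highest peaks of each stage, the 5 largest differences each way with the highest coverage at or above the chromosome median and cycle 13 in between, and the strongest site within 5000 bp of listed genes. Other sites are named as members of clusters, after their values were seen. Gene places and labels come from those tables, and symbols from RefSeq Release 6, which matched 31 of 32 genes. The members and lists were chosen with earlier results of these data known. Motifs and peak sequences were not analysed here. Alternatives were other linkages, windows, scalings, read floors, 1 read per position and strand, and subsets of peaks or sites.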

Additional observations from a re-analysis of the deposited data

How the results depend on the processing

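No paired analysis was possible because each stage has 1 library, and for the same reason no replicate could be left out. There were 103 alternative values of the chromosome 4 counts, shares and median log2 ratio from cycle 8 to late cycle 14. Of these, 71 stayed within 1.5 times the count or within the interval of the value given. That median did not change sign, and the medians of the separate steps were not among these values. Peaks no lower than the middle height of the cycle 8 list numbered 32, 50 and 65 on chromosome 4 at the 3 stages. Of their sites, 19.8% were in all 3 lists, whereas presence by coverage, at its low threshold, gave 99.3% of all chromosome 4 sites. Sites of all 3 lists, by construction fewer, gave 14 higher and 4 lower from cycle 8 to late cycle 14 with a median log2 ratio of 0.60, 13 and 2 from cycle 8 to cycle 13, and 0 and 2 from cycle 13 to late cycle 14. These counts have no counterpart on the other arms. For the step from cycle 13 to late cycle 14, reads over 300 bp gave 6 higher (4.11%, with 2.98% of all sites). For it 1 read per position and strand gave 4 higher (2.74%, with 1.66% of all sites). The median of ratios gave 42 higher and 6 lower (28.8% and 4.11%, with 14.7% and 15.7% of all sites). The chromosome 4 reads far from peaks gave 3 and 17, and leaving out the sites in and near bt gave 7 lower. The cause was not tested. These last 2 alternatives, the reads far from peaks and leaving out the sites of bt, were chosen after seeing the data. The median of ratios moved the all-site median log2 ratio of cycle 8 to late cycle 14 from −0.20 to 0.00, and that of chromosome 4 from 1.04 to 1.24. Reads near peaks were 27.8%, 27.2% and 29.2% with 1 read per position and strand, and 35.9% at cycle 8 inside peak intervals. The chromosome 4 share of reads was 0.700%, 0.878% and 1.002% with 1 read per position and strand, 0.599%, 0.694% and 0.797% of the reads of the 6 arms, and 0.736%, 0.971% and 1.16% of their reads far from peaks, so it increased at each stage in all of these. Of 31 named sites, 24 differed by 2-fold or more between cycle 8 and late cycle 14; all 24 did with reads over 300 bp and 20 with 1 read per position and strand, the exceptions being 91167 (pan), 421926 and 421984 (CG2052) and 1004102 (toy). That count cannot exceed 300 at a site, and more than 200 were reached at 4, 23 and 19 sites of chromosome 4 at the 3 stages, so depth and this limit both bound what it can show.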
